A study of Mus musculus with 12 samples.

Results

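The respiratory chain passes electrons from NADH and succinate to oxygen across the inner mitochondrial membrane. Complex I (NADH dehydrogenase, genes named Nduf) and complex II (succinate dehydrogenase, Sdha to Sdhd) feed electrons into ubiquinone, complex III (cytochrome bc1, the Uqcr genes and Cyc1) hands them to the soluble carrier cytochrome c (Cycs), and complex IV (cytochrome c oxidase, the Cox genes) reduces oxygen. Complexes I, III and IV pump protons, and the gradient drives ATP synthase. Astrocytes of the spinal cord hold the whole chain, although they are also known for active glycolysis. The nuclear genes of these complexes were taken from the platform annotation by their symbols, from probe sets that list a single gene: every Nduf and Uqcr gene, Sdha, Sdhb, Sdhc and Sdhd, Cyc1, Cycs and the Cox4 to Cox8 genes. The rule took 75 of the 18193 annotated genes and 153 of the 45101 probe sets on the array; another 10 probe sets list a member beside other genes and were not used. The 75 genes comprised 34 subunits of complex I, 4 of complex II, 9 of complex III, cytochrome c, 18 of complex IV (with Ndufa4, an Nduf gene by name whose product is now counted as a complex IV subunit), 8 Ndufaf assembly factors of complex I, and Ndufa4l2, a paralogue of Ndufa4.

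Astrocytes had been laser-captured from lumbar cord of male mice and were compared in 4 groups of 3 mice, with 1 Affymetrix mouse genome array per mouse: SOD1 G93A and non-transgenic (NTg) littermates at 90 days (the symptomatic stage) and SOD1 G93A and NTg littermates at 120 days (late-stage disease). SOD1 G93A mice carry a transgene for mutant human superoxide dismutase, expressed in many cell types and not in astrocytes alone, and came from the B6SJL-Tg(SOD1 G93A)1Gur/J line after long backcrossing to C57Bl/6 J Ola/Hsd. Different mice were used at each age. The authors found microglial and neuronal markers in the captured material. They describe its RNA as coming from mixed cells, of which astrocytes were a major part. In such bulk samples fewer cells of a type and less RNA per cell cannot be told apart.

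Signals are given as normalized log2 values, which can be compared between mice of 1 age for 1 probe set, but not between ages or between genes. Each gene is represented by its brightest probe set, and a log2 fold change is SOD1 G93A over NTg. A gene was called where limma's moderated test gave an adjusted p (Benjamini-Hochberg, over the 26132 probe sets tested) under 0.05. Of the 75 genes, 70 were bright enough to be tested. Ndufb4 and the tissue isoforms Cox4i2, Cox6b2, Cox7b2 and Cox8b were not, each being above the median of its array on at most 1 array. Of the 70, Cox6a2 passed this filter only through SOD1 G93A mice (6 of these arrays and 1 NTg array above the median), and Ndufb1 and Ndufa4l2 only through NTg mice (2 SOD1 G93A and 5 NTg arrays for Ndufb1, 1 SOD1 G93A and 4 NTg arrays for Ndufa4l2). The choice of genes to test thus favoured a difference in these 3.

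The late-stage SOD1 G93A replicate 3 stood apart from the other arrays. Its median deposited signal was 55.2, against 27.9 to 43.1 on the other late-stage arrays, and its mean correlation with the arrays of its own group was 0.835, against 0.880 for each of the other arrays of that group and 0.945 to 0.952 within late-stage NTg. All 15 astrocyte markers examined were bright enough to test, and at 120 days 3 of 15 rose, Gfap by 4.79, Sox9 by 1.53 and Aldh1l1 by 1.22 on the log2 scale. The others were not called, and 6 of the 15 were negative. Without overlap, 5 of the 15 were higher, the 3 called among them, and 1 was lower, S100b (−0.60, adjusted p = 0.100). That made 40% in all, against 35.7% of all genes. The mean signal of the astrocyte markers was 9.64 to 10.47 in SOD1 G93A and 9.41 to 9.75 in NTg mice at 120 days, and 10.37 to 10.69 in SOD1 G93A and 10.20 to 10.44 in NTg mice at 90 days. Markers of other cells moved too. At 120 days 11 of 13 microglial markers rose, with mean signals of 8.96 to 9.04 in SOD1 G93A and 6.62 to 6.74 in NTg mice, while 6 of 20 neuronal markers fell and 1 rose, with mean signals of 8.75 to 9.12 in SOD1 G93A and 9.52 to 9.90 in NTg mice. At 90 days 4 of 13 microglial markers rose (8.68 to 8.95 in SOD1 G93A and 7.25 to 7.54 in NTg mice) and no neuronal marker was called (9.23 to 9.60 in SOD1 G93A and 9.57 to 9.72 in NTg mice). Of these lists 20 of 20 neuronal and 13 of 14 microglial markers were bright enough to test. The part of these cells in the values below was not tested.

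Promoter sequence is shown for 2 of the genes called at 120 days, Sdhd and Ndufaf8, and for Cox6a1, the ubiquitous partner of the called isoform Cox6a2, because the nuclear respiratory genes are known targets of NRF1 and of the ETS-family factor GABP (NRF-2). The windows end at the base before the RefSeq transcription start (GRCm38.p6), run 5′ to 3′ on the strand of the gene, and leave out bases that overlap a neighbouring gene (Timm8b for Sdhd and Tepsin for Ndufaf8). Capitals mark the ETS letters CCGGAAG, or their complement CTTCCGG, and the NRF1 letters, GCGCA and GCGC with any base between them. Sdhd lies at chr9:50603850-50603900 on the minus strand, Ndufaf8 at chr11:120098881-120098933 on the plus strand and Cox6a1 at chr5:115348959-115349208 on the minus strand.
Sdhd: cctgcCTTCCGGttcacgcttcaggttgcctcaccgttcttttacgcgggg
Ndufaf8: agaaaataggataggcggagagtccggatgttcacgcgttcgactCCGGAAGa
Cox6a1: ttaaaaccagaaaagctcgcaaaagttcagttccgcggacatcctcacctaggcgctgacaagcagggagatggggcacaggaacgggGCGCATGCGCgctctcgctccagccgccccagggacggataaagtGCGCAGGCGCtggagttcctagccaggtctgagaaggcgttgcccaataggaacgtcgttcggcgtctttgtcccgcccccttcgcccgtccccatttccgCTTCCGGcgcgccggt

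Of the 75 members, 60 had an entry in the RefSeq promoter table. In the 250 bases before the start, searched on both strands, the NRF1 letters stood in 8 of the 60 (13.3%) and in 4.23% of all 27025 genes of the table. The search used all 250 bases, also those left out of the windows shown. Sdhd is thus among the 8, although its window above does not hold the NRF1 letters. The ETS letters stood in 10 of the 60 (16.7%) and in 7.83% of all genes, and the cyclic AMP response element TGACGTCA in 4 of the 60 (6.67%) and in 1.77% of all genes. None of the stretches in capitals overlaps another, and the matches describe the sequence only. Genes with the ETS letters were found among those that rose (Ndufaf8), among those that fell (Sdhd) and among those not called at either age (Cox6a1, Ndufb7 and Uqcrh). The other called genes, Cox6a2 and Ndufa2, were not among the members found with any of these letters. Only 60 of the 75 members could be searched, so this alone does not show that their promoters lack the letters.

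At 90 days no respiratory chain gene was called. Most members nonetheless lay slightly below NTg: 52 of 70 had a negative log2 fold change (74.3%, against 47.2% of all 12429 genes tested), and their median was −0.13, against 0.02 over all genes. Without SOD1 G93A replicate 2 of this age the median was −0.05. The background at this age was low, with 0.225% of all genes called. At an unadjusted p under 0.05, 3 members passed (4.29%), against a background of 6.22%. The 3 SOD1 G93A mice did not overlap the 3 NTg mice in 8 members (11.4%), 1 higher and 7 lower, against 12.4% of all genes (6.95% higher and 5.45% lower). By the rule of a 2-fold change with an unadjusted p under 0.05, 1 member passed, Ndufb1, against 2.14% of all genes. The share called or past an unadjusted p under 0.05 was below that over the array, and the negative values were many and small.

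Complex I held most of the lower values at 90 days. Of its 33 tested subunits, 27 were negative, with a median of −0.16 (−0.05 without SOD1 G93A replicate 2 and −0.23 without replicate 3), and the mean signal over the subunits was 10.38, 10.10 and 10.25 in SOD1 G93A mice, against 10.46, 10.45 and 10.41 in NTg mice. Every SOD1 G93A mouse was below every NTg mouse, by little in replicate 1. The membrane arm, which holds the proton pumps, gave a median of −0.18 over 18 subunits, and the matrix arm, which takes up NADH, gave −0.12 over 14. Ndufb6, a membrane arm subunit, had signals of 9.92, 9.66 and 9.75 in SOD1 G93A mice, against 10.50, 10.53 and 10.22 in NTg mice. The groups did not overlap, with a log2 fold change of −0.64 (SE 0.217, adjusted p = 0.594). Ndufb1, another membrane arm subunit, was dim, at 5.30, 4.78 and 3.97 in SOD1 G93A mice, against 5.60, 5.74 and 6.10 in NTg mice. It had the largest difference of any member at this age, −1.13 (SE 0.452, adjusted p = 0.793).

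The other complexes at 90 days had medians of −0.03 (complex II, 4 genes), −0.13 (complex III, 9 genes), −0.11 (complex IV, 14 genes) and −0.19 (the 8 Ndufaf factors), and cytochrome c stood at −0.31. Cox6a2, the heart and skeletal muscle isoform of subunit 6a, was the member furthest above NTg. Its signals were 6.66, 5.68 and 5.86 in SOD1 G93A mice, against 5.08, 5.12 and 5.09 in NTg mice, or 0.97 as log2 fold change (SE 0.316, adjusted p = 0.560). No overlap was seen, although the NTg signals lay just below the array median of 5.14 and replicate 1 carried much of the difference.

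**Figure D1:**
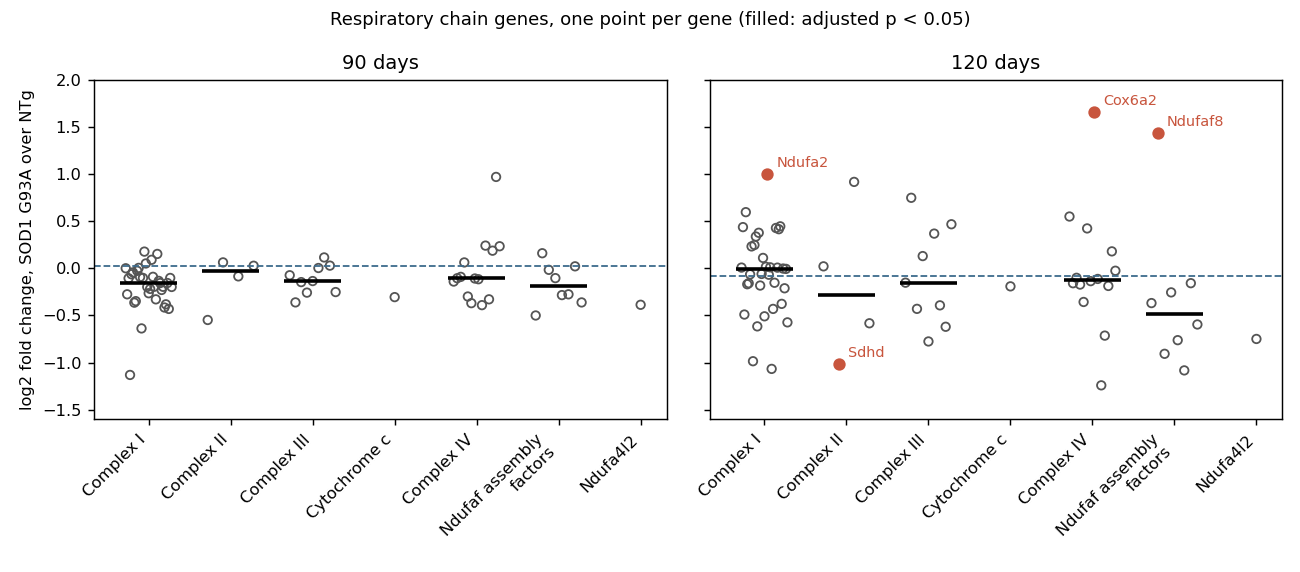
Log2 fold change, with SOD1 G93A set over NTg (vertical axis), for each of the 70 tested respiratory chain genes, grouped by complex, at 90 days (left) and 120 days (right); black bars are group medians and the dashed line is the median over all genes tested. At 90 days most points lie just below 0 and none is called, whereas at 120 days the points spread to both sides, with Cox6a2 (1.65), Ndufaf8 (1.43), Ndufa2 (1.00) and Sdhd (−1.02) called (filled).

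At 120 days the members moved in both directions. Cox6a2, Ndufaf8 and Ndufa2 rose and Sdhd fell, so that 4 of 70 were called (5.71%), below the 8.6% of all genes called at this age (4.14% higher and 4.47% lower). At an unadjusted p under 0.05, 6 members were higher and 11 lower (24.3% in all), against 27.7% of all genes (11.6% higher and 16.1% lower). The mice did not overlap in 11 members that were higher and 17 that were lower (40.0% in all), against 35.7% of all genes (15.3% higher and 20.4% lower). The 2-fold rule gave 6 of the 70 members, against 13.2% of all genes. The median over the 70 was −0.14 (−0.06 without SOD1 G93A replicate 3), against −0.08 over all genes, and 44 of the 70 (62.9%) were negative, against 55.2% of all genes. The shares called and past the 2-fold rule were below those over all genes, and by the other measures the members lay close to the rest of the array. They were more scattered than at 90 days, with a median absolute log2 fold change of 0.37 at 120 days and 0.17 at 90 days, while over all genes it was 0.43 at 120 days and 0.22 at 90 days.

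Cox6a2 showed the largest rise at 120 days. Its signals were 6.72, 6.94 and 7.67 in SOD1 G93A mice, against 5.79, 5.25 and 5.33 in NTg mice, with means of 7.11 ± 0.50 in SOD1 G93A and 5.46 ± 0.29 in NTg mice (SD, n = 3 each). All SOD1 G93A mice were higher than all NTg mice, replicate 3 by the most, and the log2 fold change was 1.65 (3.15-fold, SE 0.316, adjusted p = 0.0093). The NTg signals lay around the array median of 5.51, with 1 of the 3 above it. Its ubiquitous partner Cox6a1 had signals of 12.80, 12.66 and 12.39 in SOD1 G93A mice, against 12.75, 12.88 and 12.78 in NTg mice. These overlapped (log2 fold change −0.19, SE 0.220, adjusted p = 0.623).

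Ndufaf8, an assembly factor known in human cells as the partner of the complex I assembly factor NDUFAF5, had signals of 9.03, 9.18 and 10.17 in SOD1 G93A mice, against 7.85, 8.09 and 8.15 in NTg mice. All SOD1 G93A mice were higher, again with replicate 3 at the top, and the log2 fold change was 1.43 (2.70-fold, SE 0.293, adjusted p = 0.013). The other probe set of Ndufaf8 gave 1.26 (adjusted p = 0.085). At 90 days Ndufaf8 was at 0.16 (adjusted p = 1.00).

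Ndufa2, a small accessory subunit of the matrix arm of complex I, had signals of 11.28, 10.94 and 11.47 in SOD1 G93A mice, against 10.21, 10.16 and 10.32 in NTg mice. The groups were far apart beside a narrow NTg range, with a log2 fold change of 1.00 (2.00-fold, SE 0.250, adjusted p = 0.031). At 90 days it stood at −0.19. When the ages were compared, Ndufa2 had the smallest unadjusted p of the members for a change in the effect of the transgene, yet its adjusted p was 0.402.

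Sdhd, which together with Sdhc anchors complex II in the membrane, was the member that fell. Its signals were 5.84, 5.62 and 5.36 in SOD1 G93A mice, against 6.43, 6.80 and 6.64 in NTg mice, with no overlap. The log2 fold change was −1.02 (0.494-fold, SE 0.278, adjusted p = 0.043), and the other Sdhd probe set gave −0.58 (adjusted p = 0.353). At 90 days the signals were 6.49, 6.92 and 6.82 in SOD1 G93A mice, against 7.28, 7.78 and 6.82 in NTg mice, or −0.55 as log2 fold change (adjusted p = 0.934), with overlapping mice.

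These calls did not all hold in every fit. Without NTg replicate 2 of the late stage no member was called, the adjusted p of Cox6a2 being then 0.054, and without SOD1 G93A replicate 3 only Cox6a2 and Ndufaf8 remained. Ndufa2 and Sdhd were also lost when the replicate number was used as a block (adjusted p = 0.077 and 0.084), and their log2 fold changes kept their sign under every alternative.

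**Figure D2:**
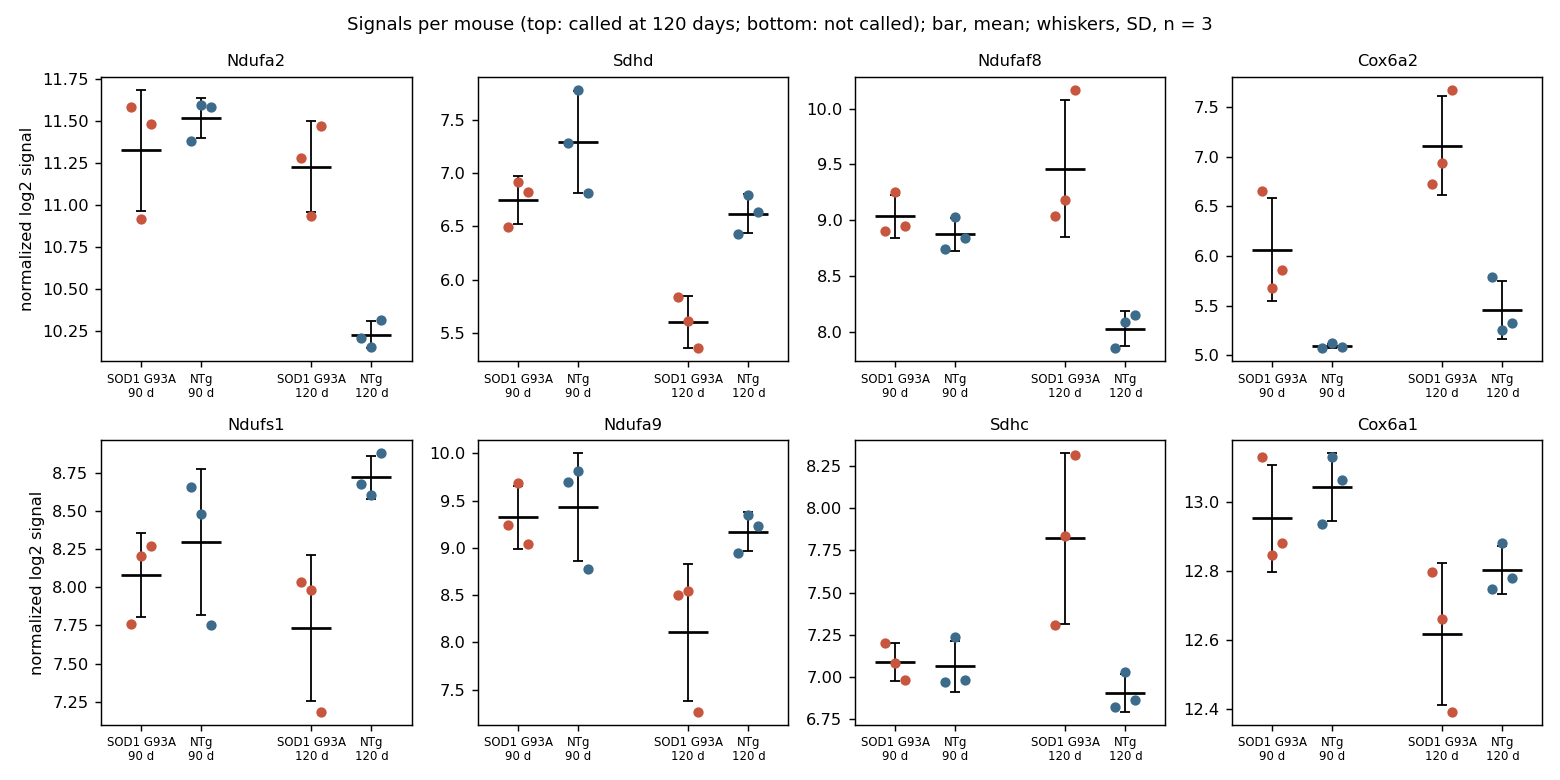
Normalized log2 signal (vertical axes, each with its own range) of the 4 genes called at 120 days (top) and of 4 genes not called (bottom), 1 point per mouse, with SOD1 G93A in red and NTg in blue; bars are means and whiskers SD (n = 3). Ndufa2, Ndufaf8 and Cox6a2 are higher and Sdhd lower in every SOD1 G93A mouse at 120 days, with no gap of that size for Ndufa2 or Ndufaf8 at 90 days.

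Within complex I the 33 tested subunits at 120 days had a median of −0.01, with 15 positive and 18 negative, and values from −1.07 to 1.00. The mean signal was 10.07, 9.75 and 9.88 in SOD1 G93A mice, against 9.90, 9.98 and 9.96 in NTg mice, so the groups overlapped. In the matrix arm 9 of 14 genes (64.3%) did not overlap, 4 higher and 5 lower, and in the membrane arm 5 of 18 (27.8%), 2 higher and 3 lower, against 35.7% of all genes; the contrast between the arms was not tested. Ndufs1, the largest iron-sulphur subunit, had signals of 8.03, 7.98 and 7.19 in SOD1 G93A mice, against 8.68, 8.61 and 8.88 in NTg mice (log2 fold change −0.99, SE 0.308, adjusted p = 0.067). Ndufa9, an accessory subunit near the ubiquinone site, had signals of 8.50, 8.55 and 7.27 in SOD1 G93A mice, against 8.94, 9.35 and 9.23 in NTg mice (−1.07, SE 0.374, adjusted p = 0.095). In both genes all SOD1 G93A mice were lower, with replicate 3 the lowest, and neither passed the threshold. Ndufa7 (0.60, adjusted p = 0.164), Ndufa6 (0.45, adjusted p = 0.299) and Ndufv3 (0.42, adjusted p = 0.419), accessory subunits of the same arm, had no overlap in the other direction. Ndufa1, a membrane arm subunit, was at 0.02 with overlapping mice.

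The 4 genes of complex II parted from one another at 120 days. Sdha, the flavin-bearing catalytic subunit, had signals of 10.01, 9.80 and 9.13 in SOD1 G93A mice, against 10.29, 10.03 and 10.36 in NTg mice, lower without overlap (−0.58, SE 0.262, adjusted p = 0.180). Sdhb, the iron-sulphur subunit, was close between groups (0.02, SE 0.211). Sdhc had signals of 7.31, 7.83 and 8.32 in SOD1 G93A mice, against 6.82, 7.03 and 6.86 in NTg mice (0.92, SE 0.265, adjusted p = 0.052). Sdhc and Sdhd, the pair of membrane anchors, therefore differed in sign by their brightest probe sets, but the other Sdhc probe set gave −0.43 (adjusted p = 0.475).

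In complex III none of the 9 genes was called by its brightest probe set, and the catalytic subunits Cyc1 and Uqcrfs1 had the lowest values. Cyc1, the cytochrome c1 haem protein, had signals of 11.33, 10.99 and 10.76 in SOD1 G93A mice, against 11.57, 11.80 and 11.57 in NTg mice (−0.62, SE 0.253, adjusted p = 0.143). Uqcrfs1, the Rieske iron-sulphur protein, had signals of 9.04, 8.44 and 8.07 in SOD1 G93A mice, against 9.08, 9.29 and 9.50 in NTg mice (−0.78, SE 0.385, adjusted p = 0.224). Neither gene overlapped between groups, Uqcrfs1 by a margin of only hundredths. Uqcrq, a small subunit beside the ubiquinone site, went the other way, at 9.55, 9.35 and 10.13 in SOD1 G93A mice, against 9.07, 8.94 and 8.78 in NTg mice (0.75, SE 0.252, adjusted p = 0.084). A dim Uqcrq probe set gave 2.13 (SE 0.328, adjusted p = 0.0028), the only further call among the 136 member probe sets tested, of which 5 were called (background 7.45% of all probe sets). It averaged 5.33 in SOD1 G93A and 3.20 in NTg mice, both below the array median of 5.51, and entered the test only through 3 SOD1 G93A arrays with none of NTg, so that the size of this difference is uncertain. Uqcrb, another subunit beside the ubiquinone site, was at −0.15, and the core proteins Uqcrc1 and Uqcrc2 were at −0.43 and −0.39, none of them called.

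Cytochrome c was not called and its mice overlapped. Cycs had signals of 11.27, 11.30 and 10.99 in SOD1 G93A mice, against 11.45, 11.29 and 11.38 in NTg mice (−0.19, SE 0.220, adjusted p = 0.614), and its 4 probe sets ranged between −0.73 and 0.15.

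In complex IV the only call was a tissue isoform, Cox6a2, which had entered the test only through SOD1 G93A mice. Of the 11 ubiquitous subunits none was called, 9 were negative and the median was −0.16; their mean signal was 10.70, 10.52 and 10.40 in SOD1 G93A mice, against 10.71, 10.86 and 10.73 in NTg mice, lower in all SOD1 G93A mice, though replicate 1 only just so. Cox5a, a subunit on the matrix side, had the smallest p of them. Its signals were 12.43, 12.15 and 11.62 in SOD1 G93A mice, against 12.71, 12.89 and 12.75 in NTg mice (−0.71, SE 0.243, adjusted p = 0.087), and its 3 probe sets gave −0.93 to −0.61. Cox8a, a small membrane subunit, gave −1.24 (SE 0.446, adjusted p = 0.102) by its brightest probe set, with signals of 6.44, 7.35 and 5.0 in SOD1 G93A mice, against 7.42, 7.79 and 7.30 in NTg mice. The mice overlapped and the other Cox8a probe set gave 0.17.

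Of the isoform pairs, Cox4i1, the common Cox4, was at −0.03 and its partner Cox4i2, the lung and hypoxia form, was too dim to test. Cox6b1 was at −0.16, with Cox6b2, the testis form, too dim. Cox7a2 was at −0.17, Cox7a1, the muscle form, at 0.55 (adjusted p = 0.430), and Cox7a2l, which is known for joining complexes III and IV into supercomplexes, at 0.42 (adjusted p = 0.279). Cox7a2l was higher without overlap, at 11.25, 11.19 and 11.44 in SOD1 G93A mice, against 11.08, 10.77 and 10.76 in NTg mice. Cox8c, the testis form, was at −0.11, and Cox8b and Cox7b2 were too dim. Of the 3 tissue isoforms tested, out of 7, only Cox6a2 was called, and the filter had favoured a difference in it.

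The Ndufaf assembly factors other than Ndufaf8 were all on the negative side at 120 days, between −1.08 and −0.16, and none of these 7 was called. The median over all 8 was −0.48. Ndufaf7, a methyltransferase that modifies a complex I core subunit, had signals of 7.09, 6.72 and 5.65 in SOD1 G93A mice, against 7.53, 7.54 and 7.64 in NTg mice, lower without overlap (−1.08, SE 0.326, adjusted p = 0.059). Ndufaf5, the partner of Ndufaf8 in human cells, was at −0.91 (SE 0.379, adjusted p = 0.153) with overlapping mice, so this pair of factors lay on opposite sides. Of 6 further complex I assembly factors from a separate list none was called and the median was −0.03, and of 24 factors for complexes II to IV none was called and the median was −0.14.

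A split of complexes I to III by function was chosen after the values were seen and was therefore not tested. The 10 subunits counted as catalytic were Ndufv1, Ndufv2, Ndufs1, Ndufs3, Ndufs7, Ndufs8, Sdha, Sdhb, Cyc1 and Uqcrfs1. They had a median of −0.44 at 120 days with 9 of 10 negative and none called. The other 36 subunits tested were counted as accessory, among them the membrane anchors Sdhc and Sdhd of complex II. Their median was 0.01, with 20 positive and 16 negative. Without overlap, 6 of the 10 catalytic genes were lower and none higher (60% in all). Of the 36 accessory genes, 6 were lower and 8 higher (38.9% in all). Over all genes the share was 35.7% (15.3% higher and 20.4% lower). The lowest values, those of Ndufa9 and Sdhd, were of subunits counted as accessory. The mean signal of the catalytic subunits was 10.33, 9.94 and 9.74 in SOD1 G93A mice, against 10.40, 10.41 and 10.50 in NTg mice. That of the accessory subunits was 9.76, 9.50 and 9.71 in SOD1 G93A mice, against 9.55, 9.68 and 9.61 in NTg mice. The groups were apart for the catalytic subunits, narrowly so for replicate 1, and overlapped for the accessory ones. The catalytic median was −0.27 without SOD1 G93A replicate 3 and −0.67 without replicate 1, and stayed negative in every fit, whereas at 90 days the medians were −0.11 for the catalytic and −0.16 for the accessory subunits.

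**Figure D3:**
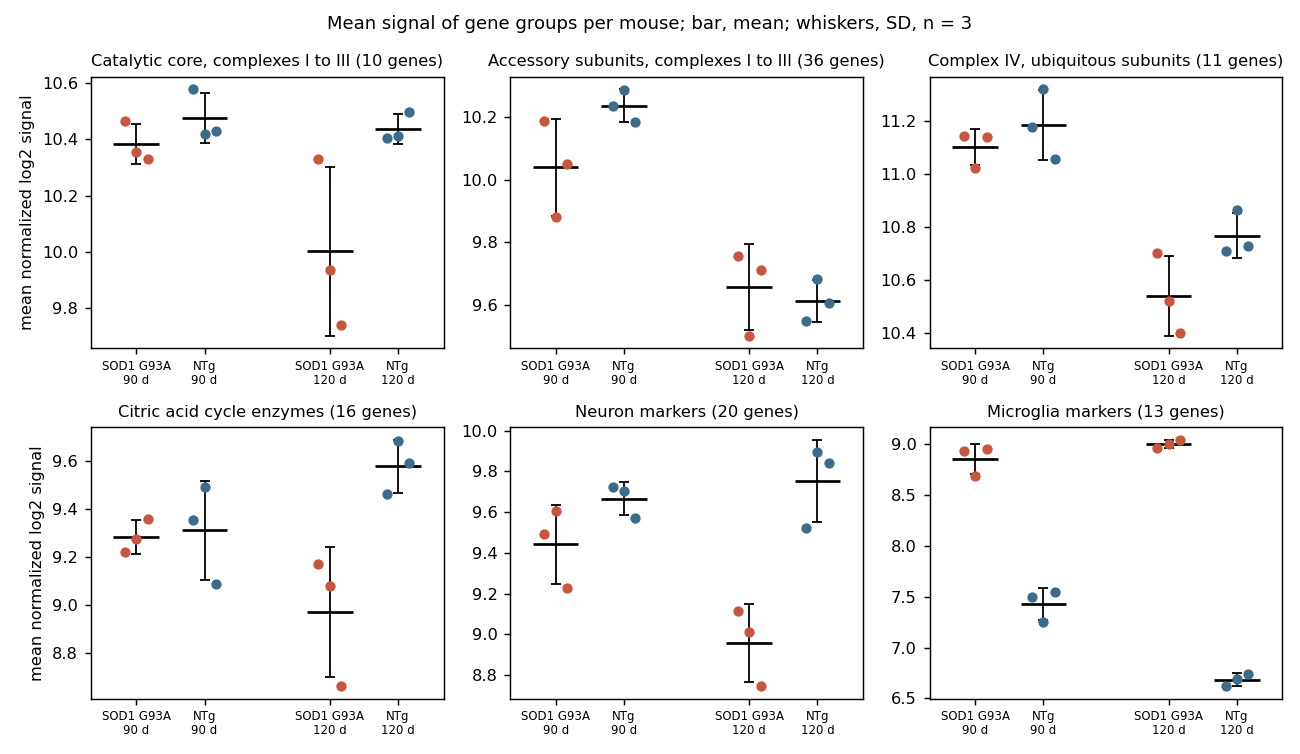
Mean normalized log2 signal (vertical axes, each with its own range) of 6 gene groups, 1 point per mouse, SOD1 G93A in red and NTg in blue; bars are means and whiskers SD (n = 3). At 120 days the citric acid cycle enzymes and the neuronal markers are lower in every SOD1 G93A mouse and the microglial markers higher. The catalytic subunits and the ubiquitous complex IV subunits are also lower in every SOD1 G93A mouse, but only narrowly in replicate 1. The accessory subunits overlap. The split into catalytic and accessory subunits was chosen after the values were seen.

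Genes that work beside the chain gave a mixed picture at 120 days. The 16 citric acid cycle enzymes tested, which supply its NADH and succinate, had a median of −0.74 with 14 negative, and 2 fell, Idh3a, a subunit of NAD-dependent isocitrate dehydrogenase (−1.39, adjusted p = 0.035), and Sucla2, a subunit of succinyl-CoA ligase (−1.13, adjusted p = 0.042). Their share called, 12.5%, stood against the 8.6% of all genes. The mean signal of the enzymes was 9.17, 9.08 and 8.66 in SOD1 G93A mice, against 9.46, 9.68 and 9.59 in NTg mice. None of the 16 ATP synthase genes was called and their median was −0.02, but their values ran from −0.79 to 1.18. Without overlap, 3 of them were higher and 5 lower (50% in all), against 35.7% of all genes (15.3% higher and 20.4% lower). Of 12 regulators of respiratory gene transcription, 1 fell, Ppargc1a, the coactivator PGC-1 alpha (−1.41, adjusted p = 0.027), with signals of 8.39, 9.15 and 7.65 in SOD1 G93A mice, against 10.01, 9.92 and 9.49 in NTg mice. ND5, the mitochondrially encoded complex I subunit with a probe set on the array, was at 0.38 with overlapping mice (adjusted p = 0.423). The calls of Idh3a, Sucla2 and Ppargc1a were lost without SOD1 G93A replicate 3 (adjusted p = 0.111, 0.124 and 0.076) and without any late-stage NTg array, and those of Idh3a and Sucla2 with the replicate block (adjusted p = 0.071 and 0.082). At 90 days no gene of these lists was called, and the citric acid cycle median was −0.03. The catalytic subunits, the citric acid cycle enzymes and the neuronal markers were each lower in every late-stage SOD1 G93A mouse. Groups that all differ by genotype meet in the same mice by design, so this cannot tell whether they are linked. The neuronal markers averaged 8.75 to 9.12 in SOD1 G93A and 9.52 to 9.90 in NTg mice. Replicate 3 was the lowest SOD1 G93A mouse in all 3 groups. It was also the lowest for astrocyte (9.64), oligodendrocyte (9.92), endothelial (6.59) and pericyte (7.31) markers, but the highest for microglial ones (9.04). The part of neuronal RNA was not tested.

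The effects at the 2 ages were compared directly in the same fit. No member and no other gene was called for this difference (0% of all genes). At an unadjusted p under 0.05, 3 members had a more positive effect at 120 days (Ndufa2, Ndufaf8 and Sdhc) and 1 a more negative one (Cox8a), against a background of 9.08% of all genes (3.93% more positive and 5.15% more negative). The 2-fold rule gave 3 members, against 6.64% of all genes. The differences in log2 fold change were 1.19 for Ndufa2, 1.27 for Ndufaf8, 0.89 for Sdhc and −1.48 for Cox8a, with adjusted p between 0.402 and 0.516. A change with age was therefore not detectable for any single member with 3 mice per group.

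Probe sets of the same gene often disagreed, which bears on how firmly any single member can be read. Of the 39 members with several tested probe sets, 14 had values of opposite sign at 120 days. Uqcrq spanned 0.53 to 2.13, Cox8a −1.24 to 0.17, Sdhc −0.43 to 0.92 and Ndufab1, the mitochondrial acyl carrier protein, −1.16 to −0.04. The probe sets of Cox5a, Ndufv2 (−0.69 to −0.37), Ndufc2 (−0.62 to −0.36) and Ndufaf8 kept to one side. Cox6a2 and Ndufa2 were each tested by 1 probe set only.

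**Figure D4:**
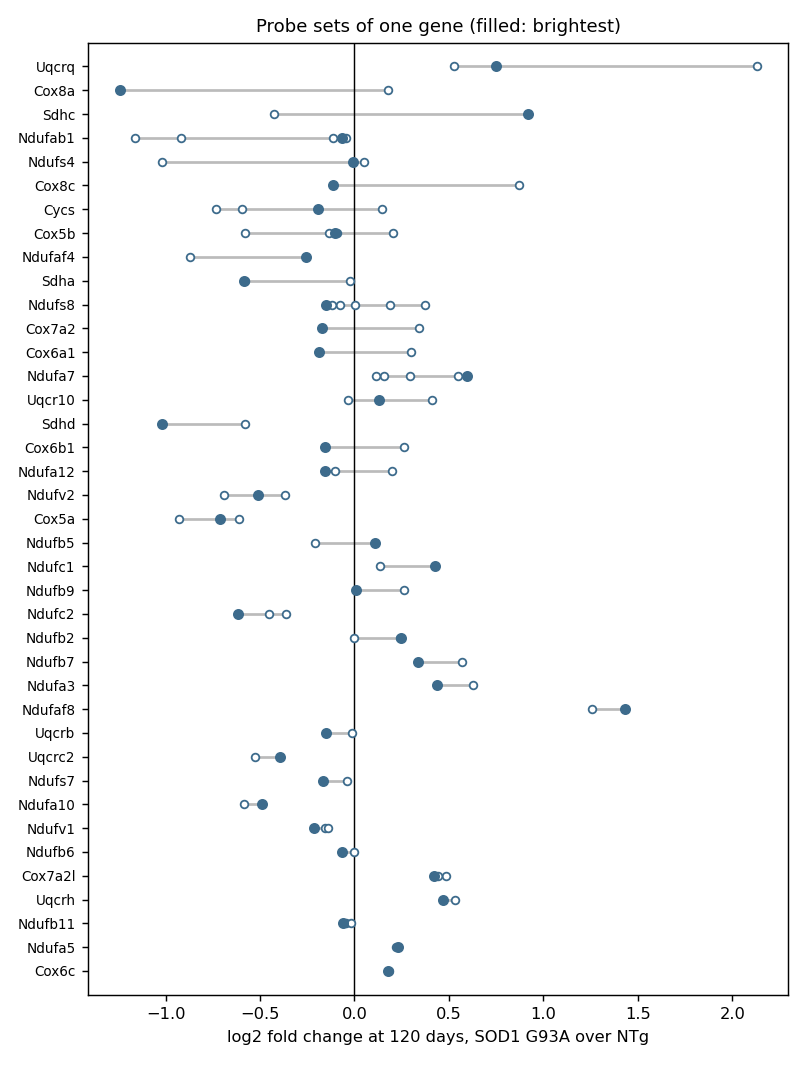
Log2 fold change at 120 days, SOD1 G93A over NTg (horizontal axis), of every tested probe set of the 39 respiratory chain genes with several, ordered by spread; filled points are the brightest probe set and grey lines join probe sets of 1 gene. Uqcrq, Cox8a and Sdhc at the top have the widest spread, and 14 genes have probe sets on both sides of 0.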

How the data were processed

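RNA of laser-captured astrocytes was amplified in rounds of linear amplification and hybridized to 3′ expression arrays. The authors stained with an ALDH1L1 antibody according to the methods, and with toluidine blue according to the labels. The deposited values are linear signal intensity values of the MAS5 algorithm (version not given in the sources used here), scaled by the authors so that the trimmed mean of each array is 100; the PLIER values named in the methods were not used here. Before log2, 7 was added to each value (it is the 20th percentile), and arrays were quantile normalized within each age. A probe set was tested where 3 or more arrays held it above their median, and the 64 control probe sets were dropped, which left 26132. Of the 45101 probe sets, 34958 have 1 gene symbol in the platform annotation, 932 several and 9211 none.

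All 12 arrays entered 1 limma fit (version 3.58.1 in R 4.3.3) on the means of 4 groups (residual degrees of freedom 8), moderated by eBayes, with Benjamini-Hochberg adjustment. The fit was tested on simulated data with known changes. A log2 fold change understates the change of dim genes because of the offset. Precision is limited by having 3 arrays per group.

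The genes and lists were chosen with earlier results of these data known. Named members were those called, the brightest member and the 2 with the largest change in each complex, the tissue isoforms of complex IV and up to 2 Ndufaf factors; other genes were up to 3 per related list. Cyc1, Sdha, Ndufb1, Ndufb6, Ndufs1, Cox5a, Ndufaf5, Ndufa6, Ndufa7, Ndufv3, Uqcrc1, Uqcrc2, S100b and the genes of the functional split and of the probe set comparison were named after their values were seen. Alternatives to the normalization, the offset, the filter, the prior, the samples in the fit and the choice of probe set were tried.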

Additional observations from a re-analysis of the deposited data

How the results depend on the processing

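The 4 respiratory chain genes called at 120 days became 7 with quantile normalization over all 12 arrays, 7 with median centring (1 higher and 6 lower), 9 with the offset at the 50th percentile, 8 with a filter at the 75th percentile and 10 with a trended and robust prior. They became 2 with no filter, 1 with probe sets ending in _at only and 1 with each age fitted alone. Leaving out arrays in turn gave 0 to 7: 0 without NTg replicate 2, 7 without SOD1 G93A replicate 1, and 2 without SOD1 G93A replicate 3, NTg replicate 1 or NTg replicate 3 of the late stage. Median centring set the median of all probe sets at −0.33, against −0.07 as reported, and 19.0% of all calls were then higher, against 48.3% as reported; without normalization the share was 56.9%. The median of the members at 120 days was −0.48 with median centring, −0.0396 with probe sets ending in _at only and −0.0452 with the mean of all probe sets of a gene, and −0.20 to −0.06 when arrays were left out (at 90 days −0.18 to −0.05). The rule of a 2-fold change with an unadjusted p under 0.05 gave 1 member at 90 days and 3 for the difference between ages; in every other fit both counts were 0. The cause of these shifts was not tested.

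With the replicate number as a block, 2 members were called at 120 days, Cox6a2 and Ndufaf8. Same-numbered mice did not deviate together (correlations of −0.27, 0.28 and −0.28 at 90 days and −0.07, 0.04 and −0.01 at 120 days), so the numbers were not taken as pairs.

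With median centring Ndufaf8 (adjusted p = 0.050) and Ndufa2 (adjusted p = 0.182) were not called. No call of a named gene changed its direction in any fit. The MAS5 signals give no depth, and the NTg signals of Cox6a2 lay near the median of the arrays.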
